A study of Mus musculus with 3 samples.

Results

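The cells described here are candidate sebaceous gland cells of mouse dorsal skin, selected on their own measured transcripts: 53 of 26847 barcodes kept after quality control. A barcode was taken when it had a transcript of at least 4 of the 5 genes *Scd1*, *Mgst1*, *Cidea*, *Elovl6* and *Far2*, at least 5 transcripts of *Scd1*, and none of the hair follicle keratins *Krt71* and *Krt35* or of the leukocyte gene *Ptprc*. The levels of those genes in these cells therefore describe the selection and are not findings. Transcripts were counted as unique molecular identifiers (UMIs), 1 for each captured mRNA molecule.

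The skin came from female C3H/HeN mice that were 25 weeks old, and droplet-based single-cell RNA sequencing was done on 3 libraries, each from skin pooled over 7 to 8 mice. The Neg library is labelled a vehicle control. The AA library is from the alopecia areata (AA) model, in which recipient mice of the same strain are given skin-draining lymph node cells taken from an affected donor. For the AA+Ab library the same model received a CXCL12-neutralizing antibody, CXCL12 being a chemokine that guides leukocytes. With 1 pooled library per group there is no replicate, so no test was made, every interval covers counting error only, and a difference between libraries cannot be told apart from a difference between the pools.

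The sebaceous gland opens into the upper hair follicle and makes sebum, a mixture of wax esters, triglycerides, squalene or sterols and free fatty acids. Its basal cells divide, leave the edge of the gland, fill with lipid droplets and finally burst, so that the whole cell becomes the secretion. PPARγ, encoded by *Pparg*, is the nuclear receptor that drives this maturation, *Scd1* makes monounsaturated fatty acids, and loss of *Scd1* in mice leaves atrophic glands and hair loss. In alopecia areata T cells attack the growing hair follicle, to which the gland is attached.

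The Neg library gave 7 of these cells, the AA library 29 and the AA+Ab library 17. These were 0.106% of the 6582 kept Neg barcodes (95% Clopper-Pearson interval 0.0428 to 0.219%), 0.278% of 10433 AA barcodes (0.186 to 0.399%) and 0.173% of 9832 AA+Ab barcodes (0.101 to 0.277%). The share was highest in AA, and the intervals of all 3 libraries overlapped. For the cells with a UMI of *Cidea*, a subset described below, the shares were 0.0608% (0.0166 to 0.156%), 0.259% (0.171 to 0.376%) and 0.163% (0.093 to 0.264%), and the Neg and AA intervals did not overlap. The rule reads absolute UMIs, so depth bears on it: with each kept barcode thinned to 3000 UMIs, 2, 16 and 9 barcodes met the rule, or 0.0327, 0.164 and 0.0992% of the 6109, 9750 and 9074 barcodes deep enough (473, 683 and 758 were left out). The condition on *Krt71* and *Krt35* took away 10 Neg, 5 AA and 3 AA+Ab barcodes that met the rest of the rule, so it lowered the Neg share most. Of these, 5 Neg, 2 AA and 2 AA+Ab barcodes had a UMI of *Cidea*, beside only 4 such Neg cells kept. The shares with *Cidea* thus depend on this condition, and the gap between their Neg and AA intervals was not tested without it. The selected cells held 220346, 864152 and 411984 UMIs, with medians of 32428, 23116 and 22650 per cell, above the kept medians of 13694.5, 11177 and 11371. Between pairs of libraries 17 to 28 barcodes, counted before quality control, had the same sequence. No sequence belonged to a selected cell in both libraries of a pair. A score from simulated doublets marked 2 Neg, 5 AA and 6 AA+Ab cells, which were kept; all of them had *Cidea*, so the 2 were among only 4 such Neg cells.

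The label was checked against genes outside the rule, and not all of the 53 cells matched it. The 6 cells without a UMI of *Cidea*, which encodes a lipid droplet protein of sebocytes, were 3 Neg, 2 AA and 1 AA+Ab cell. Each of them had 0 UMIs of *Pparg*, of *Fa2h*, a fatty acid hydroxylase, and of *Akr1c18*, a hydroxysteroid dehydrogenase. They had 0 to 4 UMIs of *Plin2*, which encodes the coat protein of lipid droplets, and 2 to 12 of the basal keratin *Krt14*. All 3 Neg cells among them carried the proliferation gene *Mki67* (32, 28 and 46 UMIs), the hair follicle stem cell gene *Lgr5* (8, 4 and 74 UMIs) and the transcription factor *Sox5* (82, 74 and 105 UMIs). The deepest AA cell, with 88758 UMIs, had 3 UMIs of *Cidea* and 22 of *Akr1c18* but 0 of *Pparg*, *Fa2h* and *Acoxl*, beside 467 of *Krt17* and 304 of *Krt79*, so it also goes against the label although it has *Cidea*. The 6 cells without *Cidea* go against it too, and they weigh most in Neg, where the 3 cells hold 111242 of its 220346 UMIs. The main comparisons with Neg are therefore also given for the 47 cells with a *Cidea* UMI, 4 Neg, 27 AA and 16 AA+Ab, a choice made after their values were seen.

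Sebocyte genes that the rule did not use were found in most of the 47 cells with *Cidea*. *Plin2* was present in all 47 (5 to 123 UMIs), *Akr1c18* in all 47 (4 to 141 UMIs), *Pparg* in 41, and *Elovl3*, a fatty acid elongase, in 40. *Krt79*, a keratin of the sebaceous duct and upper follicle, was found in 46, and *Fa2h* in 37. At the lower edge of the rule, 11 selected cells had 5 to 9 *Scd1* UMIs, and 6 of them had *Cidea* and 4 *Pparg*. Just outside it, 14 barcodes had 3 or 4 *Scd1* UMIs with the other conditions met, and 6 of them had *Cidea* and 5 *Pparg*. Of the 149 barcodes with at least 5 *Scd1* UMIs that had 3 of the 5 genes, 5 had *Cidea* and 7 had *Pparg*.

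Markers of fat, hair shaft, blood vessel and immune cells were at or near 0. The rule left out barcodes with *Ptprc*, *Krt71* or *Krt35*. Low levels of the immune and hair follicle lists therefore follow in part from the selection and are no independent check of the label. The summed level of each list is given in UMIs per 1000000 UMIs of the same cells (CPM), in the order Neg, AA and AA+Ab. The adipocyte list, fat cells being the other lipid-storing cells of skin, stood at 13.6, 23.1 and 14.6 CPM, with 9, 5 and 8 of its 10 genes at 0, and *Fabp4*, its defining fatty acid binding protein, had 0, 1 and 0 UMIs. The hair shaft keratins had 8, 8 and 7 of 8 genes at 0, the myeloid list 8, 7 and 7 of 8, the endothelial list 3, 3 and 4 of 4, and the T cell list 6, 5 and 6 of 8. The fibroblast list stood at 145, 20.8 and 33.98 CPM, and at 0, 4.94 and 10.3 CPM in the cells with *Cidea*. The inner root sheath list stood at 349, 219 and 158 CPM, the outer bulge list at 1357, 767 and 498 CPM, the skeletal muscle list at 36.3, 25.5 and 19.4 CPM and the melanocyte list at 63.5, 31.2 and 58.3 CPM. The outer bulge and inner root sheath lists were thus the highest of these in every library, and their part in the results was not tested beyond the restriction to cells with *Cidea*.

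The genes of the rule lie on several chromosomes of the mm10 (GRCm38) genome: *Scd1* at chr19:44394455-44407879 on the minus strand, *Mgst1*, a glutathione transferase of membranes, at chr6:138140316-138156755, *Far2*, which makes the fatty alcohols of wax esters, at chr6:148047259-148182758, and *Elovl6*, which elongates palmitate, at chr3:129532355-129638495, the last 3 on the plus strand. *Scd1* ranged from 5 to 53 UMIs per cell in Neg, 5 to 631 in AA and 6 to 209 in AA+Ab, with medians of 18, 53 and 50. The 7 Neg cells had 5, 8, 15, 18, 23, 24 and 53 UMIs, so the highest Neg cell was at the AA median. In CPM of the summed cells, *Scd1* stood at 663 (560 to 779), 3716 (3588 to 3847) and 3041 (2875 to 3215). *Elovl6* stood at 200, 1433 and 782 CPM, and the 3 AA cells with over 200 UMIs of it held 79.8% of the AA UMIs. *Mgst1* (1352, 3436 and 3731 CPM), *Cidea* (173, 816 and 784 CPM) and *Far2* (127, 396 and 376 CPM) were also lowest in Neg.

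**Figure D1:**
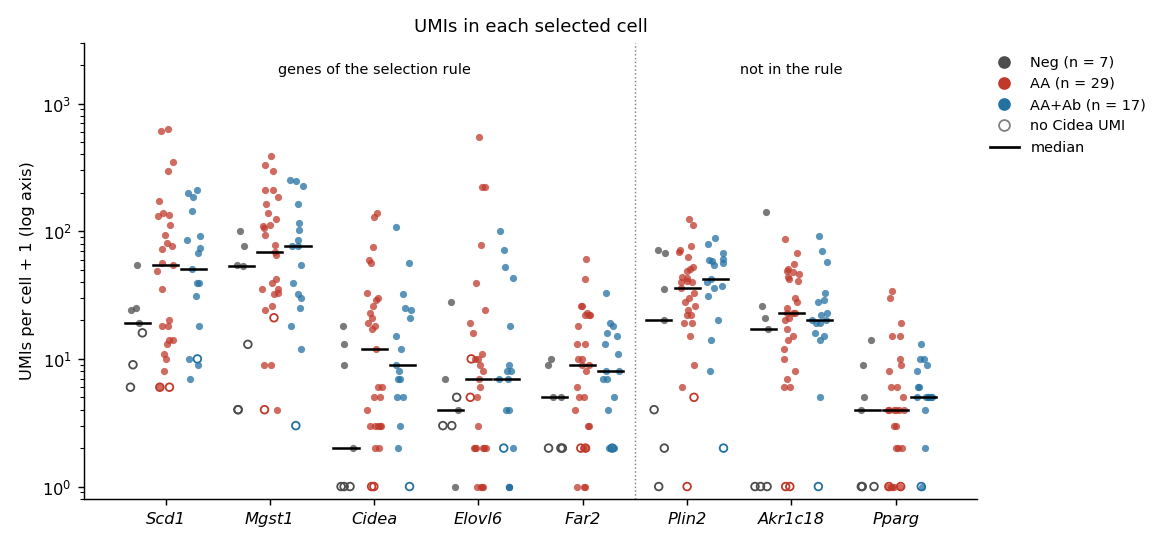
UMIs in each selected cell (plus 1, log axis) for the 5 genes of the selection rule and for Plin2, Akr1c18 and Pparg, which are not in it; each point is 1 cell, the bar is the median of the 7 Neg, 29 AA or 17 AA+Ab cells, and open points are the 6 cells without a Cidea UMI. The open points sit at or near 0 for Plin2, Akr1c18 and Pparg, while every filled point is above 0 for Plin2 and Akr1c18.

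Genes outside the rule were ranked by the lowest of their 3 ratios to the other kept barcodes, 1 ratio per library, and several of the leading genes act in lipid or steroid metabolism. These cells were set apart by correlated genes, so the differences are a description. *Akr1c18* stood at 917, 915 and 1129 CPM in the Neg, AA and AA+Ab cells against 8.34, 9.71 and 5.97 CPM in the other barcodes of each library. *Fa2h* stood at 127, 741 and 350 CPM against 1.69, 0.490 and 0.876. *Acoxl*, which resembles acyl-CoA oxidases, stood at 213, 332 and 233 CPM against 1.63, 2.06 and 1.22. Each of these genes was at least 75.2-fold above the other barcodes in every library.

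A nuclear receptor and a melanocortin receptor were also among them. *Pparg* stood at 127, 198 and 202 CPM against 1.84, 2.25 and 2.08 in the other barcodes, a ratio of 69.0 or more in each library. *Mc5r*, the melanocortin receptor that promotes sebum output, stood at 81.7, 81.0 and 55.8 CPM against 0.454, 0.416 and 0.452. *Nrg4*, a growth factor of the epidermal growth factor family, stood at 99.8, 287 and 265 CPM against 2.22, 2.23 and 1.26. *Elovl3* stood at 40.8, 284 and 277 CPM against 0.605, 0.223 and 0.704. Other leading genes were the aldo-keto reductases *Akr1c19* and *Akr1c13*, the glutathione transferase *Gsta3*, the carboxylesterase *Ces1d*, the vasopressin receptor *Avpr1a*, the adhesion molecule *Clmp* and the zinc finger genes *Zfp872* and *Zfp385b*. The highest of these lowest ratios was 540, for *Zfp872* on 4, 18 and 7 UMIs, followed by 163 for *Ankrd31*.

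*Akr1c18* and *Fa2h* also differed from the keratinocytes nearest in position. Barcodes with at least 2 UMIs each of *Krt79* and *Krt17* (141 Neg, 250 AA and 365 AA+Ab), taken as upper follicle, held *Akr1c18* at 17.4, 51.9 and 17.0 CPM and *Fa2h* at 0, 0 and 0.137 CPM. Barcodes with at least 5 UMIs each of the basal keratins *Krt5* and *Krt14* and none of *Krt79*, *Krt1* or *Krt10* (827, 1951 and 1540) held *Akr1c18* at 2.42, 9.30 and 2.15 CPM and *Fa2h* at 0.202, 0.24 and 0 CPM. As a gauge of free RNA in the droplets, *Akr1c18* had a UMI in 1 of 272, 4 of 441 and 2 of 420 barcodes with at least 3 UMIs of T cell genes and a UMI of *Ptprc*, whose median depths were 5718, 4576 and 4717.5 UMIs. In the selected cells thinned to 3000 UMIs it was found in 3 of 7, 26 of 29 and 15 of 17. *Akr1c18* thus stood above both keratinocyte sets and above the T cell background. *Pparg* is too sparse for this in Neg: it was found in 0 of 7 thinned Neg cells, against 8 of 272 of these T cell barcodes.

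**Figure D2:**
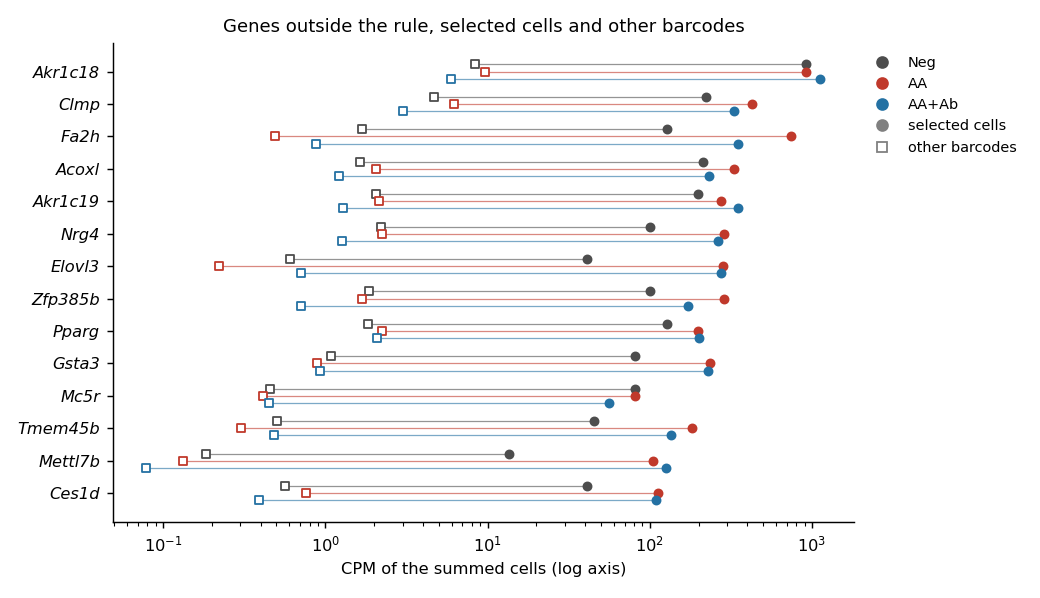
CPM (log axis) of 14 genes outside the selection rule in the summed selected cells (points) and in all other kept barcodes (squares) of the Neg, AA and AA+Ab libraries. In every library each gene sits well over 10-fold to the right of its square; Akr1c18 is near 1000 CPM in all 3 libraries.

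In AA and AA+Ab, lists of lipid synthesis were higher in cells with a higher *Scd1* share, which is the CPM of *Scd1* in a cell. *Scd1* share ran from 154 to 1401 CPM in Neg, from 56.3 to 15782 in AA and from 108 to 7597 in AA+Ab. With the AA cells in 3 parts by rising *Scd1* share, the 24-gene list of cholesterol synthesis stood at 1650, 4222 and 9752 CPM. The fatty acid synthesis list stood at 4375, 7349 and 14461 CPM, and the lipid droplet list at 1237, 2966 and 4065 CPM. The AA+Ab cells showed the same order, with 2304, 3924 and 9499 CPM for cholesterol synthesis and 3730, 6821 and 13428 CPM for fatty acid synthesis. Lipid synthesis was thus highest where *Scd1* was highest in both libraries; the parts were cut on a gene of the rule, so this describes the cells and tests nothing.

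The cell cycle list was highest in the part with the lowest *Scd1* share. In the same order of parts, the cell cycle list stood at 2740, 402 and 693 CPM in AA and at 2350, 605 and 363 CPM in AA+Ab. Single cells stood at 7762 and 7918 CPM in the low AA part and at 7020 and 4592 CPM in the low AA+Ab part. The first and the last of these had no *Cidea* UMI. In the high AA part 1 cell stood at 2546 CPM. The basal keratinocyte list stood at 7783, 4566 and 4079 CPM in AA and at 6614, 2666 and 3166 CPM in AA+Ab. The list of antimicrobial and cytokine genes stood at 3249, 581 and 490 CPM in AA and at 1584, 844 and 208 CPM in AA+Ab. The low AA part includes the deepest AA cell. In the low AA+Ab part 1 cell stood at 13746 CPM of basal genes, and the other 16 AA+Ab cells at 1836 to 4615 CPM.

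Rank correlations were also computed within the cells with *Cidea*, over 27 AA cells from 1 library and 16 AA+Ab cells from another. These cells differ in depth (12179 to 88758 and 7305 to 55651 UMIs), and the median depth of the 3 AA parts rose with *Scd1* share, from 14764 to 21549 and 31843 UMIs. Against *Scd1* share, Spearman's rho was 0.86 and 0.78 for cholesterol synthesis and 0.91 and 0.80 for fatty acid synthesis. It was 0.90 and 0.72 for *Cers4*, a ceramide synthase, and 0.88 and 0.70 for *Fa2h*, both genes of sphingolipid synthesis. It was 0.83 and 0.77 for *Elovl3*. It was 0.18 and 0.12 for *Pparg*, −0.08 and −0.27 for *Akr1c18* and 0.22 and 0.22 for *Mc5r*. The list of regulators and receptors had −0.29 and −0.56, the cell cycle list −0.62 and −0.60, and the basal keratinocyte list −0.47 and 0.12, so the basal list had no common direction in the 2 libraries.

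**Figure D3:**
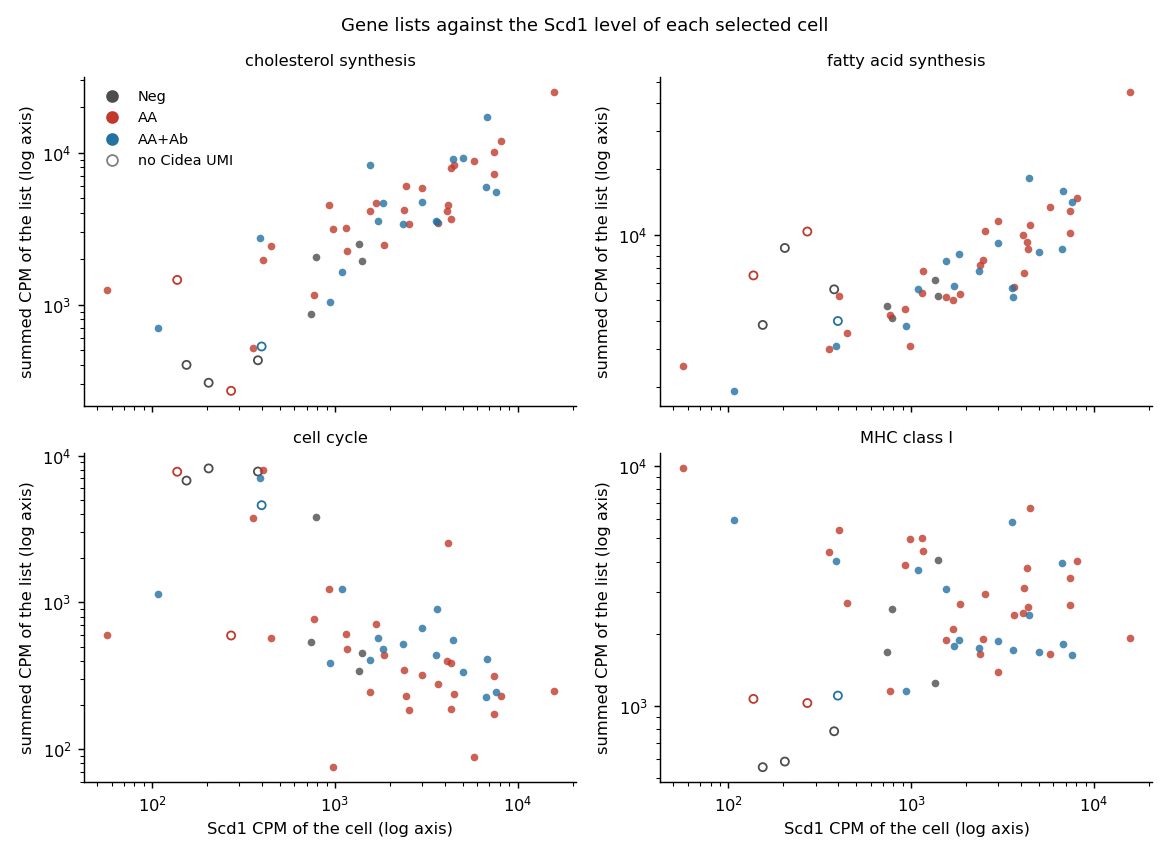
Summed CPM of 4 gene lists in each selected cell (vertical, log axis) against the Scd1 CPM of the same cell (horizontal, log axis), coloured by library, with open points for cells without a Cidea UMI. Cholesterol and fatty acid synthesis are high where Scd1 is high, and the highest cell cycle levels lie in some of the cells with low Scd1. MHC class I does not rise with Scd1, and the Neg cells with Cidea lie between 740 and 1401 CPM of Scd1.

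The first comparison asks how sebaceous gland cells of the AA library differ from those of Neg. Most genes of cholesterol synthesis and many of fatty acid synthesis were at least 2-fold higher in AA. Sebocyte genes were divided: *Pparg*, *Mc5r* and *Akr1c18* were not 2-fold higher, while *Elovl3* and *Fa2h* were. *Elovl3* stood at 40.8 CPM in Neg and 284 CPM in AA, or 82.5 and 303 CPM in cells with *Cidea*. For *Fa2h* these were 127 and 741 CPM, or 257 and 791 CPM. Only 5 AA cells with *Cidea* lay inside the *Scd1* range of the 4 Neg cells with *Cidea*. In those 5 cells *Elovl3* stood at 87.4 CPM (32.1 to 190) and *Fa2h* at 102 CPM (41 to 210). Neither gene was thus 2-fold higher in AA at a like *Scd1* level. Over all genes with at least 100 UMIs in the 2 libraries together, 210 of 1785 (11.8%) were at least 2-fold higher in AA and 111 (6.22%) at least 2-fold lower. In the cells with *Cidea* these were 125 of 1441 (8.67%) and 24 (1.67%). Without the cells scored as doublets, of which 2 were Neg cells with *Cidea*, they were 257 of 1259 (20.4%) and 130 (10.3%). The median log2 ratio over all genes was 0.01 and 0.02. The 5 genes of the rule were each at least 2-fold higher in AA over all cells, and 3 of them in cells with *Cidea*, so lipid genes that go with them are not independent of the selection.

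Of the 12 cholesterol genes with enough UMIs, 11 were at least 2-fold higher in AA and none was lower, against 11.8% of all genes; in cells with *Cidea* it was 10 of 12. The median log2 ratio was 3.06, and 2.40 in cells with *Cidea*, and the list summed to 1089 CPM in Neg and 5780 CPM in AA. *Sqle*, squalene epoxidase, had 1 UMI in 7 Neg cells and 115 UMIs in 23 of 29 AA cells, a ratio of 29.3 (5.16 to 1168), or 14.7 (2.58 to 586) in cells with *Cidea*. *Pmvk*, phosphomevalonate kinase, had no UMI in Neg and 196 UMIs in 21 AA cells, at least 4.06 higher on the log2 scale if Neg is set at 3 UMIs. *Sqle* and *Pmvk* were also found in 11 and 14 of 17 AA+Ab cells.

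The steps before and after squalene showed the same. *Idi1*, isopentenyl diphosphate isomerase, had 0 to 3 UMIs in the 7 Neg cells, a median of 4 and a maximum of 161 in AA, and stood at 54.5 and 527 CPM, a ratio of 9.67 (5.48 to 18.9). *Fdps*, farnesyl diphosphate synthase, stood at 68.1 and 493 CPM (7.24-fold, 4.34 to 13.1). *Msmo1*, a sterol oxidase, stood at 40.8 and 414 CPM (10.1-fold, 5.28 to 22.4), and it had at most 2 UMIs in any Neg cell. In cells with *Cidea* the log2 ratios of these 3 genes were 3.34, 2.48 and 2.99.

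*Hmgcs1*, an enzyme of the early steps, had a smaller ratio. It stood at 213 CPM in Neg and 1068 CPM in AA (5.01-fold, 3.73 to 6.86), and its log2 ratio was 2.32, or 1.53 in cells with *Cidea*. The 4 Neg cells with *Cidea* held 1, 16, 12 and 14 UMIs of *Hmgcs1*, and the 29 AA cells 0 to 175 with a median of 19. The ranges of single cells overlapped.

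Cell by cell, the summed list overlapped between the libraries. The 4 Neg cells with *Cidea* held 864, 2050, 2488 and 1929 CPM of cholesterol genes, and the 27 AA cells with *Cidea* ran from 516 to 25087 CPM with a median of 4144. When the AA cells were limited to the *Scd1* range of the Neg cells with *Cidea* (740 to 1401 CPM), 5 AA cells and 2 AA+Ab cells were left, with 18 and 12 cells above that range. In this window the list stood at 1815 CPM (1571 to 2086) in Neg, 2856 (2470 to 3285) in AA and 1218 (828 to 1729) in AA+Ab. Fatty acid synthesis stood at 4977, 4896 and 4322 CPM. Within the window the intervals for fatty acid synthesis overlapped in all 3 libraries, and AA stood above Neg for cholesterol synthesis while AA+Ab did not. Fewer mature cells in the Neg pool and less lipid synthesis per cell cannot be told apart with 4 Neg cells.

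The promoters of the cholesterol genes are shown because these genes were high together, and because the CCAAT box, where the factor NF-Y binds beside the sterol regulatory elements of such genes, is a known part of them. Of the 24 genes, 16 had an entry among the RefSeq promoters of GRCm38.p6, taken from 250 bases before the gene start to 50 after it. The letters CCAAT, on either strand, were in 15 of these 16, or 93.8%, against 41.1% of 27025 genes with an entry. They were in 16 of 25 fatty acid genes and in 7 of 18 genes of the rule and leading genes. The sterol element TCACNCCAC was in 1 of 16, *Hmgcs1*, against 1.44% of all genes. The E-box CACGTG was in 4 of 16 against 8.09%, the nuclear receptor half-site AGGTCA in 3 of 16 against 18.1%, and the repeat AGGTCANAGGTCA, which contains it, in none against 0.0481%. The 120 bases around the match are printed 5′ to 3′ on the gene's strand, with the sterol element of *Hmgcs1* and the CCAAT boxes (ATTGG on the other strand) of the others in capitals; a match of letters is a description and not a bound site.
*Hmgcs1*, chr13:119690159-119690278, plus strand: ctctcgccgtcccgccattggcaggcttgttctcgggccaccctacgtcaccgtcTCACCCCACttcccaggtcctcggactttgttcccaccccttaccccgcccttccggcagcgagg
*Idi1*, chr13:8885486-8885605, plus strand: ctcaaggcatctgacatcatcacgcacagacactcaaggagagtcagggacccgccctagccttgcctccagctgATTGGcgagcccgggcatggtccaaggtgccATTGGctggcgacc
*Mvd*, chr8:122443423-122443542, minus strand: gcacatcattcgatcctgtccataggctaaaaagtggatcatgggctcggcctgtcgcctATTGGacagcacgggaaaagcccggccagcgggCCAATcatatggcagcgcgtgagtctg
*Msmo1*, chr8:64733676-64733795, minus strand: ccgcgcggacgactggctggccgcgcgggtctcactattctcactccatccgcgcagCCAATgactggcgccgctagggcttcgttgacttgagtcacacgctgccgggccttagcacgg
*Mvd* encodes the decarboxylase of the mevalonate pathway and, like *Pmvk*, had no UMI in Neg; it had 99 UMIs in 15 of 29 AA cells and 33 in 10 of 17 AA+Ab cells.

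Fatty acid synthesis differed in part of its genes. Of 17 with enough UMIs, 13 were at least 2-fold higher in AA and none lower, and 8 of 16 in cells with *Cidea*, with median log2 ratios of 1.20 and 1.12. The summed list stood at 5587 and 9458 CPM, a log2 ratio of 0.76 that turned to −0.34 with a mitochondrial limit of 5% and to −0.50 in the part of the cells with the lowest *Scd1* share. *Acly*, which makes cytosolic acetyl-CoA, stood at 36.3 and 296 CPM (8.16-fold, 4.08 to 19.1). *Fasn*, fatty acid synthase, stood at 63.5 and 211 CPM (3.32-fold, 1.93 to 6.18). *Acacb*, an acetyl-CoA carboxylase, had 2 UMIs in Neg and 95 in AA, a ratio of 12.1 (3.26 to 102), or 6.27 (1.69 to 52.5) in cells with *Cidea*. In cells with *Cidea* the log2 ratios of *Acly* and *Fasn* were 2.48 and 1.61.

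The elongation enzymes and the binding protein gave other pictures. *Tecr* and *Hsd17b12*, which act in every elongation cycle, had log2 ratios of 0.90 and 1.20, and 0.26 and 0.55 in cells with *Cidea*. *Fabp5*, an epidermal fatty acid binding protein, stood at 2451 and 2370 CPM over all cells, and at 220 and 2114 CPM in cells with *Cidea*. Its Neg UMIs lay mostly in the cells without *Cidea*, so the log2 ratio was −0.05 in one set and 3.26 in the other. A single AA cell held 1003 of its 2048 AA UMIs, without which AA stood at 1268 CPM over all cells, or 0.517-fold of Neg (0.466 to 0.575).

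Among genes of storage and release, the coat protein and the lipases differed. *Plin2* stood at 880, 1322 and 1791 CPM in Neg, AA and AA+Ab, and at 1741, 1406 and 1893 CPM in cells with *Cidea*, so AA was above Neg in one set and below it in the other. *Mgll*, monoglyceride lipase, stood at 72.6 and 569 CPM (7.84-fold, 4.78 to 13.8), and its ratio was 4.14 (2.52 to 7.3) in cells with *Cidea*. *Lpl*, lipoprotein lipase, stood at 118 and 486 CPM (4.12-fold, 2.77 to 6.38), or 2.27 (1.51 to 3.54) in cells with *Cidea*. Of 6 lipid droplet genes with enough UMIs, 5 were at least 2-fold higher in AA, and 3 in cells with *Cidea*.

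Wax ester and peroxisome genes differed less once the cells without *Cidea* were left out. Of 4 wax and glyceride ester genes, 2 were at least 2-fold higher over all cells and 0 in cells with *Cidea*; *Soat1*, which esterifies cholesterol, stood at 159, 196 and 250 CPM in Neg, AA and AA+Ab. *Awat2*, a wax synthase, had 1, 22 and 8 UMIs, and *Awat1* had 0, 0 and 1. Of 5 peroxisome genes, 4 were at least 2-fold higher over all cells and 0 in cells with *Cidea*. Of 9 glutathione and antioxidant genes, none was at least 2-fold higher and 2 were lower, *Gclc* and *Gpx1*, and 0 were lower in cells with *Cidea*.

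The receptors and transcription factors *Pparg*, *Srebf1* and *Mc5r* differed by less than 2-fold over all cells. In Neg cells *Pparg* stood at 127 CPM (84.4 to 184) and in AA cells at 198 CPM (169 to 230), which gives log2 ratios of 0.64 over all cells and −0.28 in those with *Cidea*. *Srebf1*, the factor that drives fatty acid genes, had log2 ratios of 0.68 and −0.14. *Mc5r* had −0.01 and −0.93, and *Akr1c18* −0.00 and −0.92. Of 12 regulators and receptors with enough UMIs, 4 (*Sox9*, *Klf5*, *Ppara* and *Srebf2*) were at least 2-fold higher and none lower, and in cells with *Cidea* 2 of 11 were higher.

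**Figure D4:**
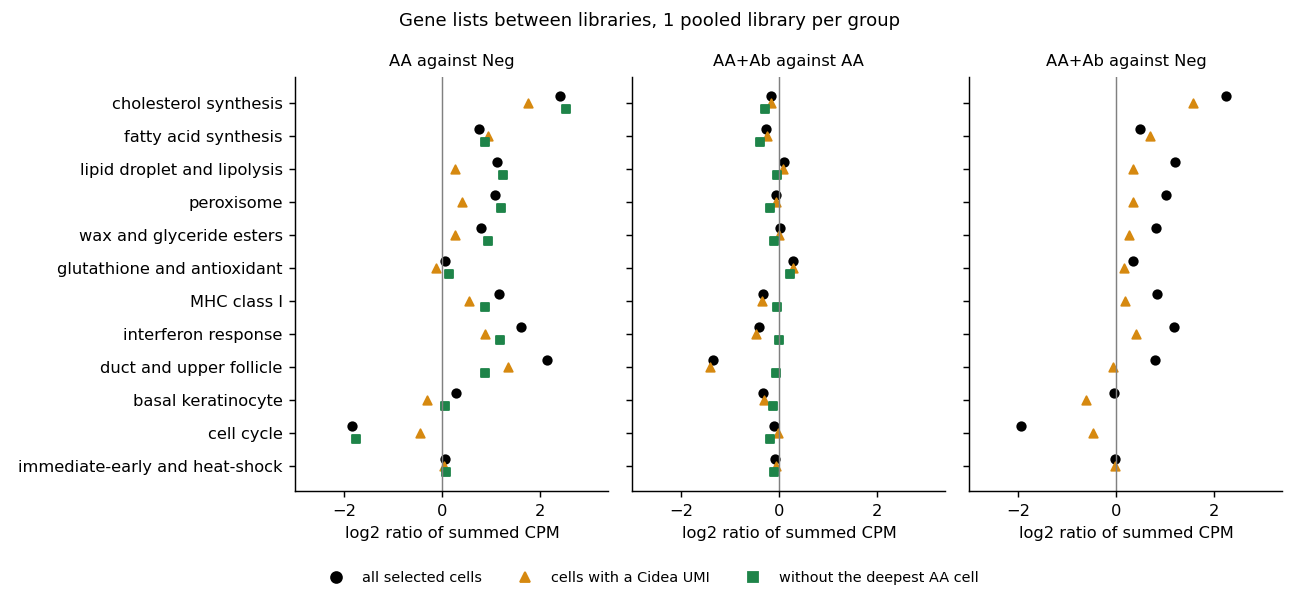
Log2 ratio of the summed CPM of 12 gene lists for the 3 comparisons, each from 1 pooled library per group; circles are all selected cells, triangles the cells with a Cidea UMI, squares the cells without the deepest AA cell (not drawn where AA is not compared). Cholesterol synthesis is right of 1.5 in both comparisons with Neg for the circles and triangles and near 0 for AA+Ab against AA, and the cell cycle list moves from below −1.8 to near −0.5 when cells without Cidea are left out.

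Several immune genes were higher in AA, and 1 cell held much of the signal. The deepest AA cell had 88758 UMIs, with 5 *Scd1*, 3 *Cidea*, 0 *Pparg*, 29 *Plin2* and 22 *Akr1c18* UMIs beside 304 of *Krt79*, 467 of *Krt17* and 536 of *Krt14*, keratins of duct, follicle and basal cells. It held 224 of 226 UMIs of *Cd74*, the MHC class II chaperone, 285 of 289 of the interferon gene *Ifi27l2a*, 197 of 216 of the defensin *Defb6*, all 185 of the skin protease *Klk7* and 112 of 114 of the cornified envelope gene *Sprr1a*. These genes, with *Krt17*, were 6 of the 12 with the largest ratio of AA to Neg. Without this cell the MHC class II list went from 425 to 15.5 CPM in AA and the duct and upper follicle list from 2127 to 881 CPM, against 481 CPM in Neg. The list of 29 antimicrobial and cytokine genes went from 1378 to 684 CPM, against 531 CPM in Neg.

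MHC class I was less tied to that cell. *H2-K1*, a class I heavy chain, had 0 to 33 UMIs in Neg cells, with a median of 1, and 0 to 277 in AA cells, with a median of 12. It stood at 213 and 888 CPM (4.16-fold, 3.098 to 5.71), and at 632 CPM in AA without the deepest cell. *H2-D1*, the other classical chain, stood at 245 and 678 CPM (2.77-fold, 2.09 to 3.73), and *B2m*, their light chain, at 531 and 1091 CPM (2.06-fold, 1.69 to 2.51). In cells with *Cidea* the log2 ratios were 1.32, 0.56 and 0.22, and the summed list was 2667 CPM in Neg and 3882 CPM in AA. In cells with at least 20 *Scd1* UMIs the log2 ratio of the summed list was −0.016, against 1.17 over all cells. Of 6 class I genes, 4 were at least 2-fold higher over all cells and 1 in cells with *Cidea*, *H2-K1*. The cells with *Cidea* still include the deepest AA cell, which held 277 UMIs of *H2-K1*. The count was not made for cells with *Cidea* without that cell. The 4 Neg cells with *Cidea* held 0, 7, 1 and 33 UMIs of *H2-K1*, inside the AA range.

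The interferon genes were sparse. The list of 34 genes in the files summed to 499 CPM in Neg, 1516 in AA and 1138 in AA+Ab, and to 1137 CPM in AA without the deepest cell. *Bst2*, an antiviral membrane protein, had 0, 129 and 29 UMIs, 92 of the 129 in the deepest AA cell. Of 4 interferon genes with enough UMIs, 3 were at least 2-fold higher in AA over all cells and 1 in cells with *Cidea*. The cells with *Cidea* include the deepest AA cell here too. *Lcn2*, a secreted iron-binding protein of the epithelial defence, had 2 UMIs in 2 Neg cells, 169 in 12 AA cells and 92 in 8 AA+Ab cells, and 71 of the 169 were in the deepest cell. The chemokine genes *Cxcl10* and *Cxcl9* had 0, 1 and 1 and 0, 21 and 2 UMIs, the 21 in 1 cell.

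The genes furthest below Neg in AA lay mostly in the Neg cells without *Cidea*. *Lgr5* stood at 390 CPM in Neg and 20.8 in AA, *Sox5* at 1189 and 138 CPM, the gap junction gene *Gjb2* at 545 and 62.5 CPM, *Mki67* at 531 and 93.7 CPM and the linker histone *Hist1h1b* at 694 and 72.9 CPM. The 3 Neg cells without *Cidea* held all 86 *Lgr5* UMIs, and 261 of 262 for *Sox5* and 106 of 117 for *Mki67*. The cell cycle list stood at 4516 CPM in Neg, 1259 in AA and 1168 in AA+Ab, and at 1347, 981 and 968 CPM in cells with *Cidea*. Only 1 of the 4 Neg cells with *Cidea* had 10 or more *Mki67* UMIs, against 3 of 27 in AA and 1 of 16 in AA+Ab. The suprabasal epidermis list stood at 191, 426 and 323 CPM and the steroid and retinoid list at 1053, 1236 and 1325 CPM, and of 17 immediate-early and heat-shock genes 1 was at least 2-fold higher and 1 lower.

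The second comparison asks what differs in sebaceous gland cells when AA mice are given the CXCL12-neutralizing antibody. No gene of cholesterol synthesis differed by 2-fold between AA and AA+Ab, and most of the genes furthest below AA lay mainly in 1 AA cell. Over all genes with 100 UMIs, 11 of 2072 (0.531%) were at least 2-fold higher in AA+Ab and 105 (5.07%) at least 2-fold lower. In cells with *Cidea* these were 10 of 1900 (0.526%) and 95 (5%). Without the deepest AA cell they were 14 of 1880 (0.745%) and 64 (3.4%). The AA library also enters the first comparison.

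None of 16 cholesterol genes, 5 wax and glyceride ester genes, 6 lipid droplet genes and 6 peroxisome genes differed by 2-fold either way. The cholesterol list summed to 5780 CPM in AA and 5153 CPM in AA+Ab, a ratio of 0.892, with a median log2 ratio of −0.27 over its genes. The log2 ratio of the sums, −0.17, turned to 0.87 with a mitochondrial limit of 5% and to 0.48 in the cells with the lowest *Scd1* share. *Hmgcs1* stood at 1068 and 1177 CPM (1.10-fold, 0.985 to 1.23), and *Fdps* at 493 and 493 CPM (1.00-fold, 0.842 to 1.18). *Pparg* stood at 198 and 202 CPM (1.02-fold, 0.774 to 1.33), and *Cidea* at 816 and 784 CPM. *Elovl6*, a gene of the rule, was lower in the summed cells, at 782 against 1433 CPM. However, 1 AA cell held 547 of its 1238 AA UMIs, and its median was 6 UMIs per cell in both libraries. Of 18 fatty acid genes, none was higher and 3 were at least 2-fold lower, which were *Fabp5*, *Fasn* and *Acacb*; *Fasn* stood at 99.5 against 211 CPM (0.473-fold, 0.328 to 0.666). One AA cell held 1003 of 2048 *Fabp5* and 54 of 182 *Fasn* UMIs in AA, and without it the ratios to AA were 0.928 (0.832 to 1.04) for *Fabp5* and 0.641 (0.439 to 0.917) for *Fasn*, so neither was 2-fold lower. *Acacb* stayed at 0.374 (0.2 to 0.657) without the AA cell that held more of it than any other.

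Some receptors stood lower in AA+Ab. Of 14 regulators and receptors, 6 were at least 2-fold lower and none higher, beside 5.07% of all genes lower, and in cells with *Cidea* 3 of 13 were lower. *Fgfr2*, a growth factor receptor of epithelia, stood at 259 CPM in AA and 124 in AA+Ab (0.478-fold, 0.345 to 0.650), and *Ppara*, a nuclear receptor of fatty acid oxidation, at 154 and 72.8 CPM (0.473-fold, 0.307 to 0.707). *Insr*, the insulin receptor, had too few UMIs for the count; it had 60 UMIs in 21 of 29 AA cells and 5 in 4 of 17 AA+Ab cells. *Klf5* and *Sox9*, epithelial transcription factors, had log2 ratios of −2.55 and −1.52, and the deepest AA cell held 107 of 192 *Sox9* UMIs, without which the ratio of *Sox9* was −0.50. The same cell held 79 of 123 *Klf5* UMIs, without which the linear ratio of *Klf5* was 0.428 (0.192 to 0.863).

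Most of the 12 genes furthest below AA had more than 50% of their AA UMIs in the deepest AA cell; the exceptions were *Creb5*, *Fosl1* and *Timp3*, with 19 of 131, 37 of 152 and 59 of 166. *Krt17* stood at 580 CPM in AA and 70.4 in AA+Ab; without that cell AA stood at 43.8 CPM and the log2 ratio went from −3.04 to 0.68. *Defb6* went from −3.36 to −0.01, and *Ifitm3*, an interferon-induced membrane protein, stood at 553 CPM in AA with the cell, 133 CPM without it and 286 CPM in AA+Ab. *H2-K1* stood at 888, 632 and 563 CPM in the same order. *Thbs1*, thrombospondin 1, and *Plet1*, an upper follicle surface protein, were lower either way: the log2 ratio of *Thbs1* was −3.56 with the cell and −2.49 without it, and that of *Plet1* −3.42 and −1.32. *Creb5*, a transcription factor, had 131 UMIs in 9 AA cells, and 2 UMIs in 1 AA+Ab cell. The 2 AA cells without *Cidea* held 34 and 18 of its UMIs, and 1 other AA cell held 52. For *Timp3* those 2 cells without *Cidea* held 58 and 14 UMIs, and for *Fosl1* they held 0. Most AA UMIs of *Creb5* and *Timp3* thus lay in a few cells, several of which go against the label.

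Few genes were higher in AA+Ab. *Gadd45g*, a stress-response gene, stood at 248 against 77.5 CPM (3.19-fold, 2.32 to 4.41), and 62 of its 102 AA+Ab UMIs lay in 1 cell. *Bach2*, a transcriptional repressor, stood at 180 against 78.7 CPM, with 51.4% of its UMIs in 1 cell. Others were spread over the cells: *Banf1*, a chromatin factor, stood at 228 against 97.2 CPM (2.35-fold, 1.73 to 3.19) and was found in 16 of 17 AA+Ab and 24 of 29 AA cells. *Timm17a*, of the mitochondrial import channel, was found in 17 of 17 and 20 of 29 cells (2.34-fold, 1.58 to 3.49), and the homeobox gene *Hoxa7* in 16 of 17 and 24 of 29 (2.27-fold, 1.63 to 3.15). The genes *Gm47283*, *Siah1a*, *Tmco1*, *Srsf5*, *Ier3* and *Gstp3* had ratios between 2.07 and 2.62.

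**Figure D5:**
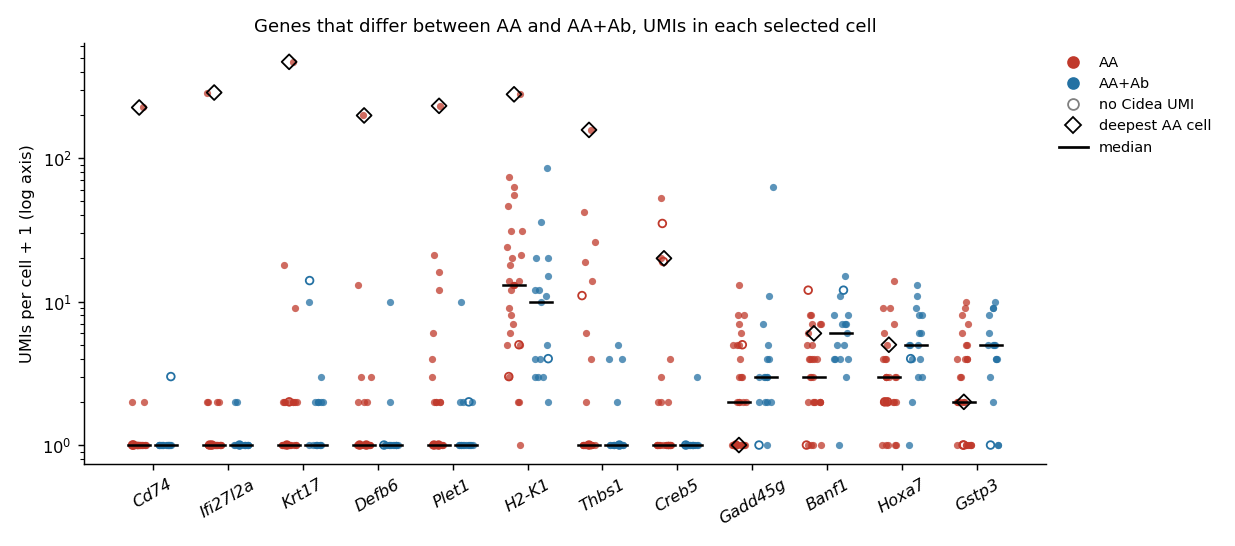
UMIs in each AA and AA+Ab cell (plus 1, log axis) for 12 genes that differed between the libraries; bars are medians, open points cells without a Cidea UMI, and the diamond is the deepest AA cell with 88758 UMIs. The diamond is the highest point for Cd74, Ifi27l2a, Krt17, Defb6, Plet1, H2-K1 and Thbs1, while Banf1, Hoxa7 and Gstp3 are spread over the cells of both libraries.

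The third comparison, AA+Ab with Neg, shares its libraries with the other comparisons. Over all genes with 100 UMIs, 96 of 920 (10.4%) were at least 2-fold higher in AA+Ab and 72 (7.83%) lower (125 and 51 with libraries scaled by trimmed mean of M values), and in cells with *Cidea* 34 of 686 (4.96%) and 18 (2.62%). Of 8 cholesterol genes, 7 were at least 2-fold higher, and 6 in cells with *Cidea*, with median log2 ratios of 2.62 and 2.04. *Fdft1*, squalene synthase, stood at 257 against 27.2 CPM (9.45-fold, 4.2 to 26.3), and *Idi1* at 439 against 54.5 CPM (8.07-fold, 4.51 to 15.9). Of 8 fatty acid genes 4 were higher and 1 lower, and of 5 class I genes 2 were higher, none of them in cells with *Cidea*. In the *Scd1* window given above, the cholesterol list of the 2 AA+Ab cells was not above Neg.

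The pathways that the study targets were thinly covered in these cells. *Ripk1*, the kinase that can lead to inflammation or necroptosis, had 3 UMIs in 2 of 7 Neg cells, 28 in 14 of 29 AA cells and 18 in 11 of 17 AA+Ab cells, or 13.6 CPM (2.81 to 39.8), 32.4 (21.5 to 46.8) and 43.7 (25.9 to 69.1). The 3 intervals overlap. Other barcodes stood at 24.3, 40.0 and 38.5 CPM. *Ripk3*, its partner in necroptosis, had 2, 0 and 0 UMIs, both in 1 Neg cell without *Cidea*; 0 of 29 AA cells allows a share of up to 10.3% of cells with a UMI, taking 3 cells as the limit of a count of 0. *Mlkl*, the membrane-breaking effector, had 1, 11 and 4 UMIs. The 18-gene RIPK1 pathway list summed to 454, 463 and 364 CPM, and none of its genes reached 100 UMIs in any pair of libraries. *Tnfaip3*, which restrains the pathway, had 20 UMIs in 5 Neg cells, 27 in 7 AA cells and 2 in 2 AA+Ab cells.

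The ligand and receptors of CXCL12 were as sparse. *Cxcl12*, the target of the antibody, had 1, 15 and 7 UMIs in 1, 6 and 3 cells. Its signalling receptor *Cxcr4* had 0, 0 and 1, and 0 of 29 AA and 0 of 7 Neg cells allow shares of up to 10.3 and 42.9% on the same limit, which concerns cells with a UMI and not cells that express the gene. Its scavenger receptor *Ackr3* had 10, 21 and 5 UMIs, and *Dpp4*, a peptidase that cleaves it, 7, 8 and 0. The summed list stood at 81.7, 50.9 and 31.6 CPM. The ratio of the list in AA+Ab to Neg was 0.386 (0.174 to 0.834), and 0.841 (0.255 to 3.58) in cells with *Cidea*. For *Ackr3* the same ratio was 0.267 (0.0717 to 0.859) over all cells. The Neg cells without *Cidea* held 0, 1 and 6 of its 10 Neg UMIs, and 1 cell held all 5 in AA+Ab. *Dpp4* stood at 31.8 CPM (12.8 to 65.5) in Neg and 9.26 (3.997 to 18.2) in AA over all cells. Its Neg UMIs all lay in cells without *Cidea*. Among cells with *Cidea* it was found in 0 of 4 Neg and 5 of 27 AA cells.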

How the data were processed

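Single-cell RNA sequencing was done on 3 libraries (Neg, AA and AA+Ab), 1 per group. The authors processed the reads with Cell Ranger 7.2.0 and FastQC 0.11.7 on the mm10 genome, per the labels, and deposited raw UMI count matrices without normalization. Library totals were 121289374, 137290217 and 141998364 UMIs.

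Barcodes with at most 10% mitochondrial UMIs and at least 200 genes were kept, 26847 of 28351, and the selection rule was applied to these counts. Counts were summed over the selected cells of a library and scaled to CPM, with exact Poisson intervals; ratios of CPM have exact conditional intervals, and shares Clopper-Pearson intervals, all at 95%. They cover counting error only, and nothing was tested between conditions. A gene counted as higher or lower when its CPM differed at least 2-fold and the 2 libraries together held at least 100 UMIs. Against 0 UMIs a bound was computed with 3 counts. Doublets were scored from simulated pairs of barcodes and kept. The genes named were the 25 leading genes outside the rule, the 12 largest and 12 smallest ratios per comparison and genes of the lists. The cells, lists and comparisons were chosen with earlier results of these data known. Calculations used Python 3.11.15, numpy 2.4.6, scipy 1.17.1, pandas 2.3.3, scikit-learn 1.9.0 and, for another scaling, edgeR 4.0.16 (trimmed mean of M values). The steps were tested on simulated data. Alternatives varied the rule, the depth, the minimum of UMIs and the cells included. Results for some genes of the lists are not reported here.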

Additional observations from a re-analysis of the deposited data

How the results depend on the processing

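Each group has 1 library, so no fit without a replicate was run, and the intervals do not cover animals or handling. No paired analysis was possible because each group has a single library. Neg rests on 7 cells, 4 with *Cidea*, and most genes fall under the minimum of 100 UMIs.

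The share of kept barcodes in Neg, AA and AA+Ab was 0.912, 0.719 and 0.681% with at least 3 of the 5 genes and 0.0327, 0.164 and 0.0992% after thinning to 3000 UMIs. It was 0.403% in AA with at least 2 *Scd1* UMIs, 0.163% with at least 20 and 0.105% with a mitochondrial limit of 5%, and 0.258% in Neg with no condition on *Krt71* and *Krt35*.

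For AA against Neg, genes at least 2-fold higher and lower numbered 104 and 24 with all 5 genes required, 97 and 43 with at least 20 *Scd1* UMIs, 880 and 672 at a minimum of 20 UMIs per gene, 56 and 22 at 300, 125 and 24 in cells with *Cidea*, 93 and 54 with the 5% mitochondrial limit, 7 and 3 after thinning, 115 and 65 with up to 2 UMIs of *Krt71* and *Krt35*, 79 and 25 without the 2 deepest cells of each library, and 73 and 11 in the part of the cells with the highest *Scd1* share against 98 and 66 in the lowest.

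For AA+Ab against AA they numbered 175 and 659 at 20 UMIs, 1 and 18 at 300, 63 and 240 with at least 3 of the 5 genes and 0 and 2 after thinning. The number higher was 52 with the 5% mitochondrial limit. The number lower was 57 with all 5 genes, 62 with at least 20 *Scd1* UMIs, 28 and 58 in the highest and lowest *Scd1* parts and 64 without the AA cell with the most UMIs.

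For AA+Ab against Neg they numbered 39 and 17 with all 5 genes, 48 and 10 with at least 20 *Scd1* UMIs, 450 and 630 at 20 UMIs, 26 and 14 at 300, 34 and 18 in cells with *Cidea*, 4 and 1 after thinning, 37 and 4 in the highest *Scd1* part, 36 and 44 in the lowest, and 48 and 19 without the 2 deepest cells. With no condition on *Krt71* and *Krt35* 212 were lower, and with up to 2 UMIs of them 58 were higher.

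The log2 ratio of the summed cholesterol list stayed above 0 for AA against Neg in all 19 alternatives (1.06 to 3.21, 2.41 as reported) and for AA+Ab against Neg in all 18 (0.67 to 2.96). The *Scd1* window was not among these alternatives. In that window the list stood at 1815 CPM in 4 Neg cells, 2856 CPM in 5 AA cells and 1218 CPM in 2 AA+Ab cells, so AA+Ab was below Neg there. Several other lists turned sign in at least 1 alternative, among them fatty acid synthesis for AA against Neg (−0.34 with the 5% mitochondrial limit) and cholesterol synthesis for AA+Ab against AA (0.87 with that limit), cell cycle with all 5 genes required (0.36 for AA and 0.36 for AA+Ab against Neg) and in the highest *Scd1* part (0.74 for AA against Neg), MHC class I for AA against Neg with at least 20 *Scd1* UMIs (−0.016), and duct and upper follicle for AA+Ab against AA in the highest *Scd1* part (0.36). Scaling by trimmed mean of M values moved the median log2 ratio of all genes for AA+Ab against Neg from 0.09 to 0.24. The cause was not tested for any of these. The alternatives with *Cidea* cells only, without the 2 deepest cells, without the deepest AA cell and, for single genes, without the AA cell with the most of their UMIs were chosen after seeing the data.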
